A study of Mus musculus with 162 samples.

Results

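The glucocorticoid receptor and a set of genes around it were followed through short-term fasting (STF) in 9 mouse organs. The set holds 10 genes, taken from the count table by their symbols, of 53686 rows in all: the receptors Nr3c1 and Nr3c2, the ligand-activating enzyme Hsd11b1, and the response genes Fkbp5, Tsc22d3, Sgk1, Zbtb16, Klf9, Cdkn1a and Errfi1. Each symbol matched 1 row. Poly(A) RNA was sequenced from 18 male C57BL/6J mice, 3 at each of 6 durations without food (0 h, 2 h, 8 h, 12 h, 18 h or 22 h). All mice had water throughout, the 0 h mice fed freely, and every mouse was killed at the same clock time, shortly after the lights went off, so fasting duration and not the hour of sampling separated the groups. Each mouse gave olfactory bulb (OB), telencephalon with diencephalon (BRN), cerebellum (CBL), brainstem (BST), stomach (STM), liver (LIV), interscapular brown fat (iBAT), perigonadal white fat (pgWAT) and posterior subcutaneous white fat (psWAT). The labels name no genetic change and no treatment besides fasting, and hormone levels were not analysed here.

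Glucocorticoids are steroid hormones of the adrenal cortex that rise in the blood with stress and food shortage and around the start of the active period. Inside the cell they bind the glucocorticoid receptor, which leaves a complex of chaperones, enters the nucleus and changes the transcription of many genes. The mineralocorticoid receptor, its closest relative, binds the same hormone with higher affinity, and 11β-hydroxysteroid dehydrogenase type 1 makes active hormone from its inactive form inside tissues, most of all in liver. Genes such as Fkbp5 and Tsc22d3 are widely used as transcript readouts of receptor activity, although other signals act on them too.

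On GRCm38, Fkbp5 lies at chr17:28399094-28517527 (minus strand), Tsc22d3 at chrX:140539528-140600659 (minus), Sgk1 at chr10:21882184-21999903 (plus), Zbtb16 at chr9:48654297-48836222 (minus), Klf9 at chr19:23141226-23168134 (plus), Cdkn1a at chr17:29090976-29100727 (plus), Errfi1 at chr4:150853919-150868892 (plus), Hsd11b1 at chr1:193221634-193264075 (minus) and Nr3c2 at chr8:76899442-77245012 (plus). All are protein-coding. Cdkn1a shares 273 exon bases with a gene on the other strand and Nr3c2 shares 247 with other genes, so their counts could hold reads of those genes.

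RefSeq promoter windows, from 250 bases before to 50 after a start site (GRCm38.p6), were matched by symbol for 8 of the 10 genes and gave 17 windows. Both strands were searched for the palindromic receptor element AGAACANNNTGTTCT, its looser core ACANNNTGT and the hexamer TGTTCT, and the full element contains the core and 2 hexamers that face each other. Of 32851 windows of all genes, 3 held the full element (0.00913%), 2249 the core (6.85%) and 6233 a hexamer (19%). Among the members' windows, 2 held the core, both of Sgk1, and 4 held a hexamer. The only member with a full element was Sgk1, and its window is shown first, with the letters of each hexamer in capitals and the spacer between them in lower case.

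Sgk1, chr10:21993640-21993939 (plus strand): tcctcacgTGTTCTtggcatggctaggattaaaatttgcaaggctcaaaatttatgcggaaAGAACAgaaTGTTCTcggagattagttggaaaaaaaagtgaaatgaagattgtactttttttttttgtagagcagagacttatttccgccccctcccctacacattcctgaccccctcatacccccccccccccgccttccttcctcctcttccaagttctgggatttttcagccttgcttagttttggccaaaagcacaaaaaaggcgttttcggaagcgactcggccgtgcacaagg

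A second Sgk1 window held the core alone, and a Tsc22d3 window held a hexamer. They are shown with those letters in capitals for comparison with the first.

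Sgk1, chr10:21978422-21978721 (plus strand): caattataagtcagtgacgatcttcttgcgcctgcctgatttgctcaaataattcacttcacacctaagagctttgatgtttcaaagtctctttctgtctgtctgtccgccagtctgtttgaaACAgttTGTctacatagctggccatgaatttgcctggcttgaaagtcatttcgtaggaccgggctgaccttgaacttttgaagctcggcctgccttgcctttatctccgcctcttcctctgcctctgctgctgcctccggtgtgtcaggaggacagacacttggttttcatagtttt

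Tsc22d3, chrX:140600473-140600772 (minus strand): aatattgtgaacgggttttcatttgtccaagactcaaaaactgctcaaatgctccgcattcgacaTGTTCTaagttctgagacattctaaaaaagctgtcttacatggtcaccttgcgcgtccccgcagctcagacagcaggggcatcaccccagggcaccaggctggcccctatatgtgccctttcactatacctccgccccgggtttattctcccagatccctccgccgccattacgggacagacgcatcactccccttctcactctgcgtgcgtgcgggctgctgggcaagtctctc

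The full element of Sgk1 has its core 186 bases before the start site, with a separate hexamer 242 bases before it. The core of the other Sgk1 window lies 127 bases before its start site, and the hexamer of Tsc22d3 185 bases before. The Fkbp5 window held none of these letters. These matches describe sequence only, and no binding was measured.

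Of the 18 libraries of each organ, 5 in all that the study left out for low totals were left out here too. The others held 3045845 to 27801717 counts assigned to genes (median 8735554), and all 10 genes passed the filter on low counts in all 9 organs. Defining markers of the labelled tissue were present in every organ, but the white fat samples varied: summed adipocyte markers spanned 97.4 to 8090 CPM in psWAT, where skeletal muscle markers reached 23655 and lymphocyte markers had a median of 1265 (8.41 in pgWAT) against 1042 for adipocyte markers, and 1170 to 15386 in pgWAT, where epididymis and testis markers reached 7466. Of the retained libraries 4 stood apart from their group: psWAT 12 h replicate 3 carried cerebellar transcripts, pgWAT 22 h replicate 2 lay near stomach and testis profiles, and BRN 2 h replicate 3 and BRN 18 h replicate 2 lay near CBL. In OB, STM and LIV the 0 and 2 h libraries ran on 1 sequencing lane and the 12 to 22 h libraries on another, so lane and long fasting cannot be told apart there, whereas 2 h against 0 h is a comparison within a lane in OB, STM, LIV, CBL and BST. In pgWAT the 18 and 22 h libraries ran on a lane that held no 0 or 2 h library, so the same holds there. By the first digits of their library numbers, the BRN 0 h libraries formed 1 series and the 18 and 22 h libraries another. In whole organs, fewer cells of a type and less RNA per cell cannot be told apart.

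The levels of the 2 receptors were compared first, as CPM (counts scaled to the effective size of a library) normalized over all libraries and divided by the length of the exons in kb. Nr3c1, the glucocorticoid receptor, was highest in fat, at 27.6 ± 7.47 (SD, n = 18) in pgWAT, 24.3 in iBAT and 17.1 in psWAT, followed by LIV at 13.9 and CBL at 12.4, and was lowest in OB at 6.79, a 4.07-fold span. Nr3c2, the mineralocorticoid receptor, ran in nearly the opposite order, from 5.87 in OB, 5.45 in BST and 4.56 in BRN to 1.51 in LIV and 0.745 in psWAT, a 7.87-fold span. The ratio of their mean levels per kb was therefore 1.16 in OB, 1.60 in BRN and 1.87 in BST, but 9.26 in LIV and 22.9 in pgWAT and in psWAT. Nr3c1 was above Nr3c2 in 15 of 18 OB libraries, in 15 of 16 BRN libraries and in every library of the other 7 organs.

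Hsd11b1, which regenerates active hormone, had the widest range of the 10 genes, with 205 normalized CPM per kb in LIV, 58.4 in iBAT, 48.96 in pgWAT and 1.01 in OB, a 204-fold span. Errfi1, a feedback inhibitor of the epidermal growth factor receptor, was also a liver transcript, at 562 in LIV against 7.67 to 17.6 in the other 8 organs. Cdkn1a, the cell-cycle inhibitor p21, was 20.03-fold higher in STM (51.1) than in LIV (2.55). Sgk1, a kinase that controls sodium channels, was highest in BST (42.5) and lowest in LIV (4.13), and Klf9, a zinc-finger factor that answers to steroid and thyroid hormone, was highest in CBL (31.0).

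Fkbp5, which encodes a co-chaperone that lowers the hormone affinity of the receptor, was highest in LIV (16.5) and pgWAT (15.8) and lowest in CBL (1.62). Tsc22d3, the anti-inflammatory factor GILZ, was highest in LIV (92.3) and lowest in OB (14.8), and Zbtb16, a transcriptional repressor of the zinc-finger class, was highest in iBAT (8.26). Over all 36 pairs of organs, 312 of 360 gene and pair combinations of the members differed by edgeR (86.7%), where 73.4% of those of all genes did. With the organs of each gene set in order of their means, 42 of the 80 steps between neighbouring organs, which are the closest pairs by construction, differed beyond the spread of the libraries. The share of such steps over all genes was not computed, so these counts describe the order of the members' organs only. Nr3c2 was the best separated, with 7 of 8 steps called and OB and BST as the exception (adjusted p = 0.56). Nr3c1 had 6 of 8, and neither LIV and CBL (0.10) nor BRN and OB (0.66) differed by the test. The top positions of Fkbp5 (LIV and pgWAT, adjusted p = 0.67), Klf9 (CBL and iBAT, 0.36) and Zbtb16 (iBAT and pgWAT, 0.078) were not separated, and Zbtb16 had 1 step of 8 called.

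**Figure D1:**
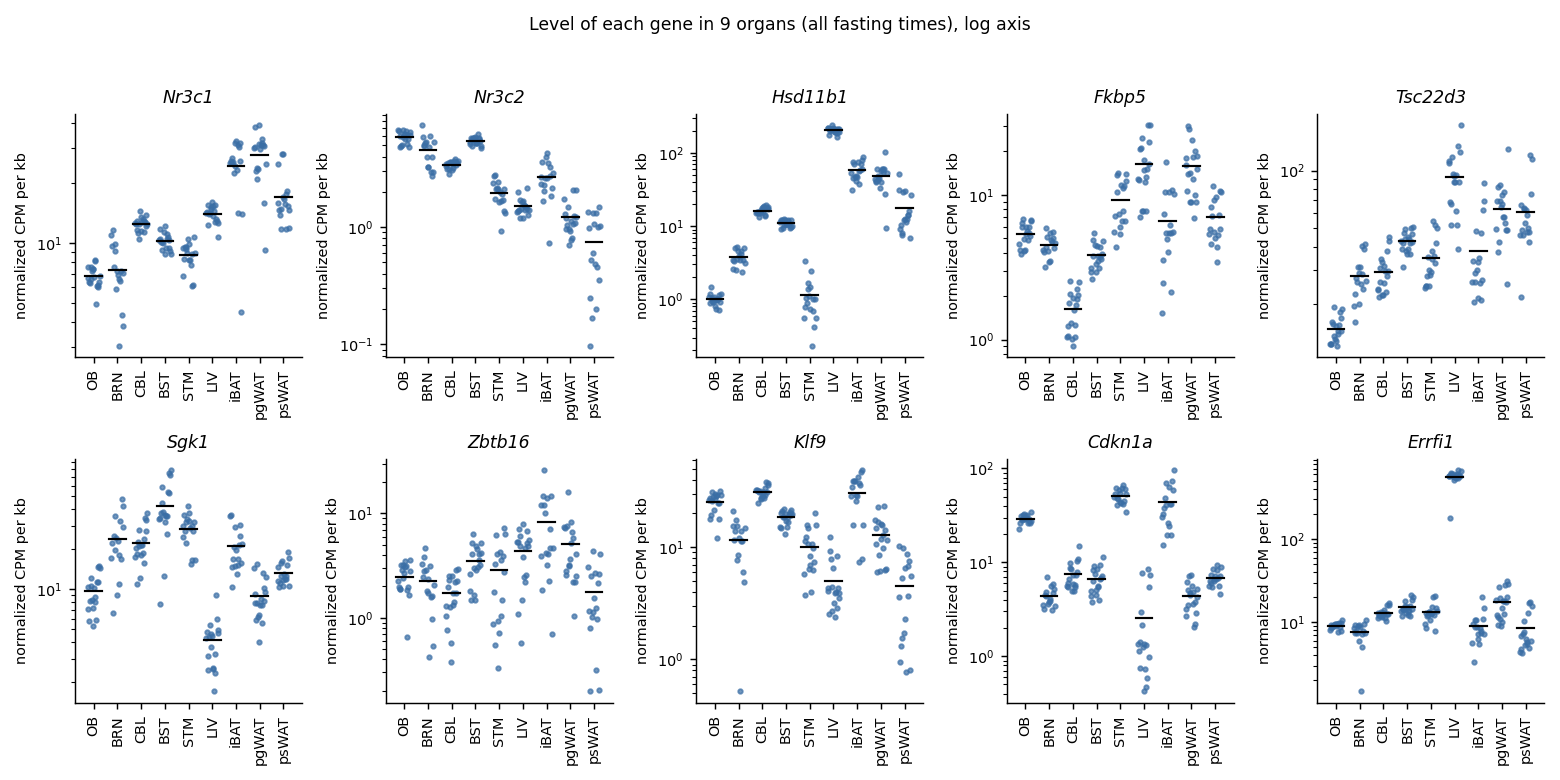
Level of each of the 10 genes in each retained library (points) by organ, with the organ mean, in normalized CPM per kb of exon on a log axis. Nr3c1 falls from pgWAT to OB while Nr3c2 runs from OB down to psWAT, and Hsd11b1 and Errfi1 stand far above all other organs in LIV.

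The effect of fasting was tested by edgeR's quasi-likelihood test within each organ, with p-values adjusted over all genes kept in that organ and a call at an adjusted p under 0.05. Long fasting (18 and 22 h, called late) against 0 and 2 h (called early) gave 4 calls among the 90 gene and organ pairs, or 4.44%, where 9.36% of all 144217 pairs were called, so as a set the 10 genes did not stand above the background in this comparison. The test for any difference between the 6 times called 10 of 90 (11.1%, background 7.34%). Each duration against 0 h gave 1 call at 2 h (background 0.0395%), 0 at 8 h (0.0874%), 0 at 12 h (1.88%), 5 at 18 h (4.29%) and 10 at 22 h (5.81%), and these comparisons share their 0 h libraries. At 8 h, 4 pairs had an unadjusted p under 0.05, and at 12 h 18 had, while DESeq2 called 0 and 2. Of the 16 calls, 14 were higher than at 0 h and 2, both of Nr3c1, were lower, against 1.2% and 1.22% of all pairs over the 5 durations. Fkbp5 took 6 of them and Tsc22d3 5, and Nr3c2, Hsd11b1, Sgk1, Zbtb16 and Klf9 took none.

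**Figure D2:**
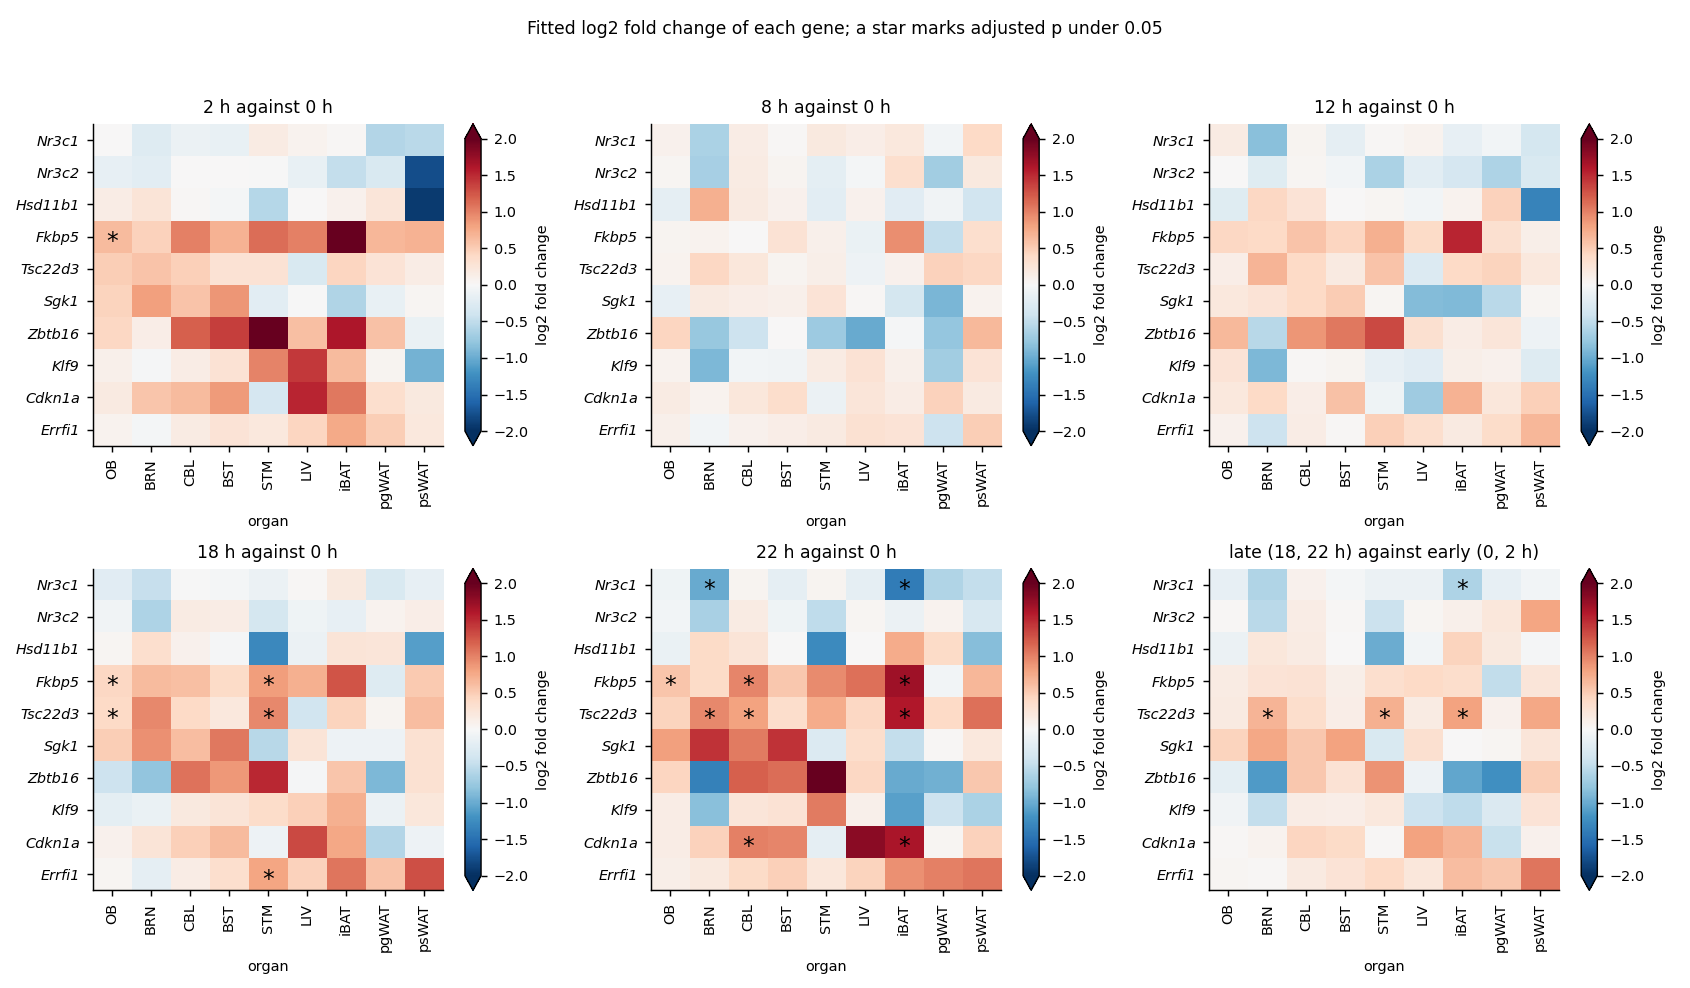
Log2 fold change of each gene (rows) in each organ (columns) for each fasting duration against 0 h and for late against early, as colour from -2 to 2, with a star on called pairs. The Fkbp5 row is positive at 2 h in all 9 organs, and its 8 h values are lower than its 2 h values in all of them.

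Fkbp5 was higher at 2 h than at 0 h in every organ by its mean, by 1.37 to 4.77-fold (median log2 fold change 0.70). In OB its normalized CPM, scaled within the organ, was 50.5, 47.4 and 43.98 at 0 h, 74.0, 68.3 and 77.7 at 2 h and 54.8, 45.8 and 46.3 at 8 h. Every 2 h library lay above every library of the other 2 times. The 2 h rise in OB was 0.63 ± 0.10 on the log2 scale (SE, edgeR adjusted p = 0.0306), and Fkbp5 was the only gene of 16742 called in OB at 2 h (background 0.00597%). This call was lost, with an adjusted p up to 0.548, when any 1 of the 0 h or 2 h libraries or replicate 2 or 3 of the 8 h or 12 h group was left out, while the log2 fold change stayed between 0.58 and 0.68.

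In the other organs too the 2 h mean was above the 0 h and 8 h means, without passing the test at 2 h. In CBL the values were 12.03, 14.2 and 12.1 at 0 h, 21.8, 24.7 and 30.5 at 2 h, and 15.4, 12.1 and 10.8 at 8 h (2 h: log2 fold change 1.01 ± 0.20, edgeR adjusted p = 0.42). In STM they were 45.1, 57.2 and 37.6 at 0 h, 84.3, 108 and 112.4 at 2 h, and 58.9, 48.02 and 42.7 at 8 h. In iBAT they were 10.1, 24.3 and 16.7 at 0 h, 51.03, 73.3 and 120.1 at 2 h, and 37.5, 33.2 and 26.999 at 8 h, so that the lowest 2 h library was above the highest of both other times in all 3 organs. LIV had 75.8, 75.7 and 42.8 at 0 h and 124.4, 121.2 and 146.2 at 2 h, and returned to 45.2, 44.5 and 87.2 at 8 h.

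All 2 h libraries of Fkbp5 were above all 0 h libraries in 8 of 9 organs, where 6.35% of all gene and organ pairs showed such a gap upward. The exception was pgWAT, with 138.3, 306 and 282 at 2 h and 183.5, 163.6 and 110.2 at 0 h. The 2 h mean was above the 0 h mean in all 9 organs for 35 of 11679 genes kept in all organs (0.3%), and above both the 0 h and the 8 h mean in all 9 for 3 of them (0.0257%): Fkbp5, Klf13 and Serinc3, the last 2 named after their values were seen. The organs came from the same 3 mice per time, so they are not 9 independent observations, and this pattern was noticed in the data. By the same count, Zbtb16, Klf9 and Cdkn1a had a 2 h mean above both neighbours in 7 organs, Tsc22d3 and Errfi1 in 6, Sgk1 in 4, Hsd11b1 in 3, Nr3c2 in 1 and Nr3c1 in 0. At 2 h the log2 fold changes of all genes were related to exon length in some organs (Spearman's rho 0.50 in STM, -0.42 in BRN, -0.35 in pgWAT and 0.25 in BST), with opposite signs, and its part in the Fkbp5 values, the member with the longest exons (9468 bases), was not tested.

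**Figure D3:**
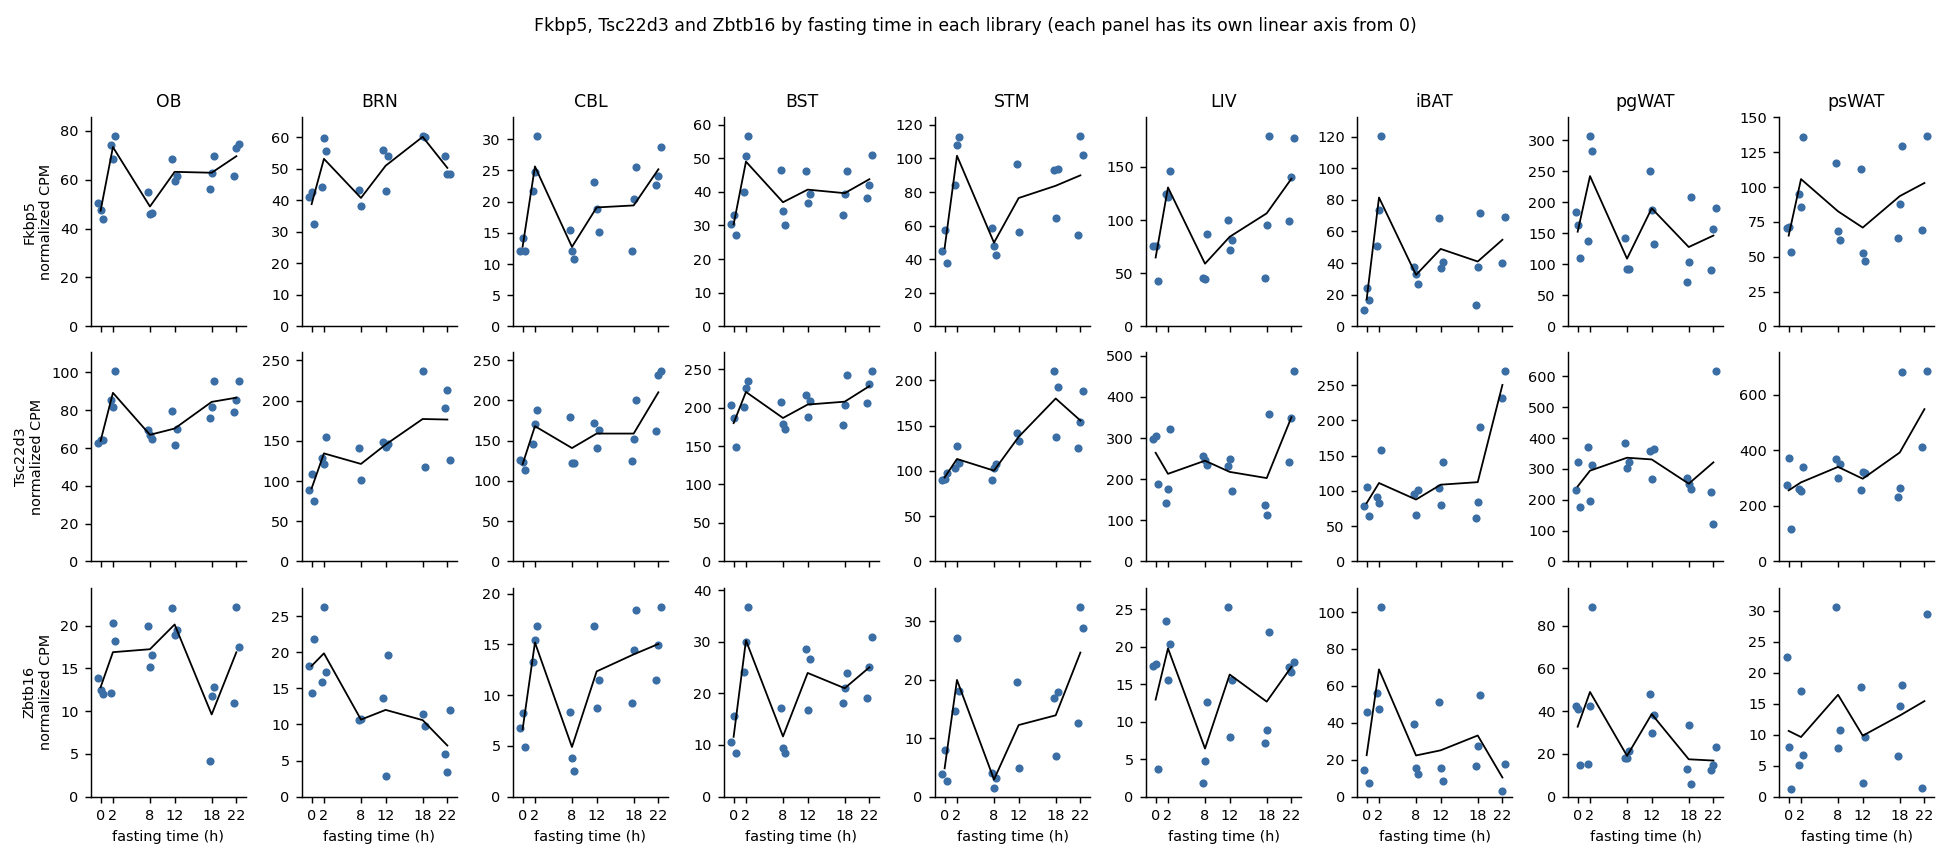
Normalized CPM of Fkbp5, Tsc22d3 and Zbtb16 (rows) by hours of fasting in each of the 9 organs (columns), with a point for each mouse and a line through the means. The Fkbp5 mean is higher at 2 h than at 0 h and 8 h in all 9 organs.

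Fkbp5 was also high after long fasting. At 22 h it was called in OB (61.3, 73.0 and 74.4; log2 fold change 0.56, edgeR adjusted p = 0.029, background 0.113%), in CBL (22.7, 24.1 and 28.7; 0.98 ± 0.20, adjusted p = 0.017, background 3.96%) and in iBAT (40.1 and 69.4; 1.69 ± 0.55, adjusted p = 0.023, background 41%). At 18 h it was called in OB (56.3, 62.7 and 69.5; 0.41, adjusted p = 0.017, background 12%) and STM (92.9, 64.7 and 93.5; 0.84 ± 0.27, adjusted p = 0.048, background 14.3%). All of these libraries were above all 0 h libraries of their organ, as they were at 22 h in 6 of 9 organs (background 12.9%). Against the early group, which holds the 2 h libraries, late fasting was not called for Fkbp5 in any of the 9 organs by edgeR or DESeq2, with 1 unadjusted p under 0.05 (log2 fold changes from -0.49 in pgWAT to 0.40 in LIV), whereas the test for any difference between times was called in OB (edgeR adjusted p = 0.0016, background 15.3%), CBL (0.029, 2.99%), STM (0.048, 6.55%) and iBAT (0.043, 29%). The OB call of any difference held when each library was left out in turn (adjusted p 0.00103 to 0.00750), the CBL call was lost in 6 of 18 such fits (adjusted p up to 0.0724), and the STM and iBAT calls were each lost in most of them (12 of 17 and 13 of 17). The 18 h call in STM was lost in 10 of 17 (adjusted p up to 0.16).

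Without OB 0 h replicate 1 the 18 h and 22 h calls of Fkbp5 in OB were lost, as they were without 18 h replicate 1 or 3 and 22 h replicate 2 or 3 (adjusted p up to 0.0524 and 0.165). The 22 h call in CBL was lost without 0 h replicate 3 or 22 h replicate 2 or 3 (adjusted p up to 0.0867), and that in iBAT without 0 h replicate 1 or 3 or 22 h replicate 3 (up to 0.165).

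Tsc22d3 was called higher in late than in early fasting in 3 organs. In STM its normalized CPM was 89.9, 90.7 and 97.7 at 0 h, 210, 137.1 and 192.8 at 18 h, and 124.96, 153.8 and 187.8 at 22 h. No late library overlapped the 0 h ones, a gap upward that 15.5% of all genes showed at 18 h and 9.96% at 22 h. Late against early was 0.71 ± 0.14 on the log2 scale (edgeR adjusted p = 0.0025, background 22.7%), and this call and that of 18 h against 0 h (0.96 ± 0.19, adjusted p = 0.0069) held without each library in turn. In the same comparison of STM, the summed gastric epithelium markers went from 17320 to 42660 CPM early to 5527 to 24992 late, with 3 of 4 called lower. The summed neuron markers went from 7.83 to 21.7 early to 22.9 to 48.7 late, with both tested members called higher, and skeletal muscle markers from 224.5 to 1437 to 1388 to 3053 with 0 of 4 called. Astrocyte markers and adipocyte markers each had 2 of 3 called lower. The part of these in the Tsc22d3 result was not tested.

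In iBAT the values were 79.0, 105.1 and 64.3 at 0 h, 61.96, 84.1 and 191.4 at 18 h, and 231.3 and 269 at 22 h. Of the 18 h libraries 1 was above the 0 h range, while both 22 h libraries were (1.60 ± 0.39, edgeR adjusted p = 0.0049), and this call held without each library in turn. The late against early difference in iBAT was 0.81 ± 0.27 (adjusted p = 0.027, background 36%). It was lost without 0 h replicate 3, 2 h replicate 1 or 2, 18 h replicate 3 or either 22 h library, with an adjusted p up to 0.0924. In BRN the 0 h values were 88.4, 108.9 and 75.3 and the 22 h values 190.7, 213 and 126.1 (0.96 ± 0.24, adjusted p = 0.027, background 6.88%), and late against early was 0.68 ± 0.18 (adjusted p = 0.033, background 7.43%). Without the 4 libraries that stood apart, of which 2 are from BRN, the BRN late against early difference was 0.44 and no longer called (adjusted p = 0.27). The late against early call was also lost without 0 h replicate 1 or 3, 2 h replicate 2 or 3, 18 h replicate 2 or 22 h replicate 1 or 2. Over all 16 fits without 1 library the difference ran from 0.39 to 0.89. The 22 h call was lost without any 0 h library or 22 h replicate 1 or 2 (edgeR adjusted p up to 0.198).

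Smaller rises of Tsc22d3 were called in other brain regions. In CBL it went from 126.1, 122.98 and 113.3 at 0 h to 162.4, 232.1 and 236 at 22 h (0.80 ± 0.19, edgeR adjusted p = 0.039), and in OB from 62.8, 64.3 and 64.2 to 75.97, 81.6 and 95.6 at 18 h (0.40 ± 0.10, adjusted p = 0.019). The groups did not overlap in either organ, as for 11.0% of all genes in CBL at 22 h and 13.5% in OB at 18 h, and the 3 CBL 0 h libraries were the deepest of that organ, with 20396385 to 22071004 counts against 6487419 to 9487976 in the others. At 22 h its mean was above 0 h in all 9 organs, by 1.27 to 3.02-fold, with all libraries above in 7 of them (background 12.9% over the organs). The CBL call was lost without any 0 h library, 2 h replicate 2, 12 h replicate 1 or 3, or 22 h replicate 2 or 3 (adjusted p up to 0.14), and the OB call without 0 h replicate 1 or 18 h replicate 1 or 3 (up to 0.0799).

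The receptor itself moved the other way, with calls in 2 organs. In iBAT the normalized CPM of Nr3c1 was 135.7, 141.8 and 139.3 at 0 h, 158.6, 177 and 139.7 at 18 h, and 26.4 and 77.5 at 22 h, both below every 0 h and 18 h library. In that comparison of iBAT, 32.4% of all genes lay below all 0 h libraries at 22 h and 41% were called. The 22 h difference was -1.40 ± 0.35 on the log2 scale (edgeR adjusted p = 0.0052). It was lost only without 22 h replicate 2, which has the lowest value and the fewest counts of the retained iBAT libraries (3156101), where it was -0.84 (adjusted p = 0.0856), and without 22 h replicate 3 it was -2.39. Late against early was also called in iBAT (-0.62 ± 0.23, edgeR adjusted p = 0.043). In a fit of lanes 5 and 8 only, without a lane term, the difference was 0.06 (edgeR adjusted p = 0.964). That fit has no 22 h library and also lacks 2 h replicate 3, 12 h replicate 3 and 18 h replicate 2. The part of the 22 h libraries alone cannot be read from it. The late against early call was lost in 12 of 17 fits that left out a library, among them every 0, 2 and 18 h library, 8 h replicates 2 and 3 and 22 h replicate 2. Over all 17 fits the difference ran from -1.11 to -0.34.

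In BRN, Nr3c1 went from 87.6, 81.9 and 96.7 at 0 h to 37.5, 34.8 and 59.9 at 22 h (-1.01 ± 0.25, edgeR adjusted p = 0.026), with no overlap, a gap downward that 18.0% of all genes showed. Without any 0 h library or 22 h replicate 1 or 2 this call was lost (edgeR adjusted p up to 0.198). Over all 16 fits without 1 library the 22 h difference ran from -1.29 to -0.86. Late against early missed the threshold (-0.60 ± 0.19, edgeR adjusted p = 0.054). In the other 7 organs the late against early difference of Nr3c1 lay between -0.17 and 0.08, in CBL, for example, at 117.4, 114.5 and 118.7 at 0 h and 116.3, 132.02 and 115.4 at 22 h. At 22 h against 0 h Nr3c1 was not called in these organs. There its differences ran from -0.61 in pgWAT and -0.47 in psWAT to 0.05 in CBL and 0.06 in STM. The 22 h mean was above the 0 h mean in 2 of 9 organs.

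**Figure D4:**
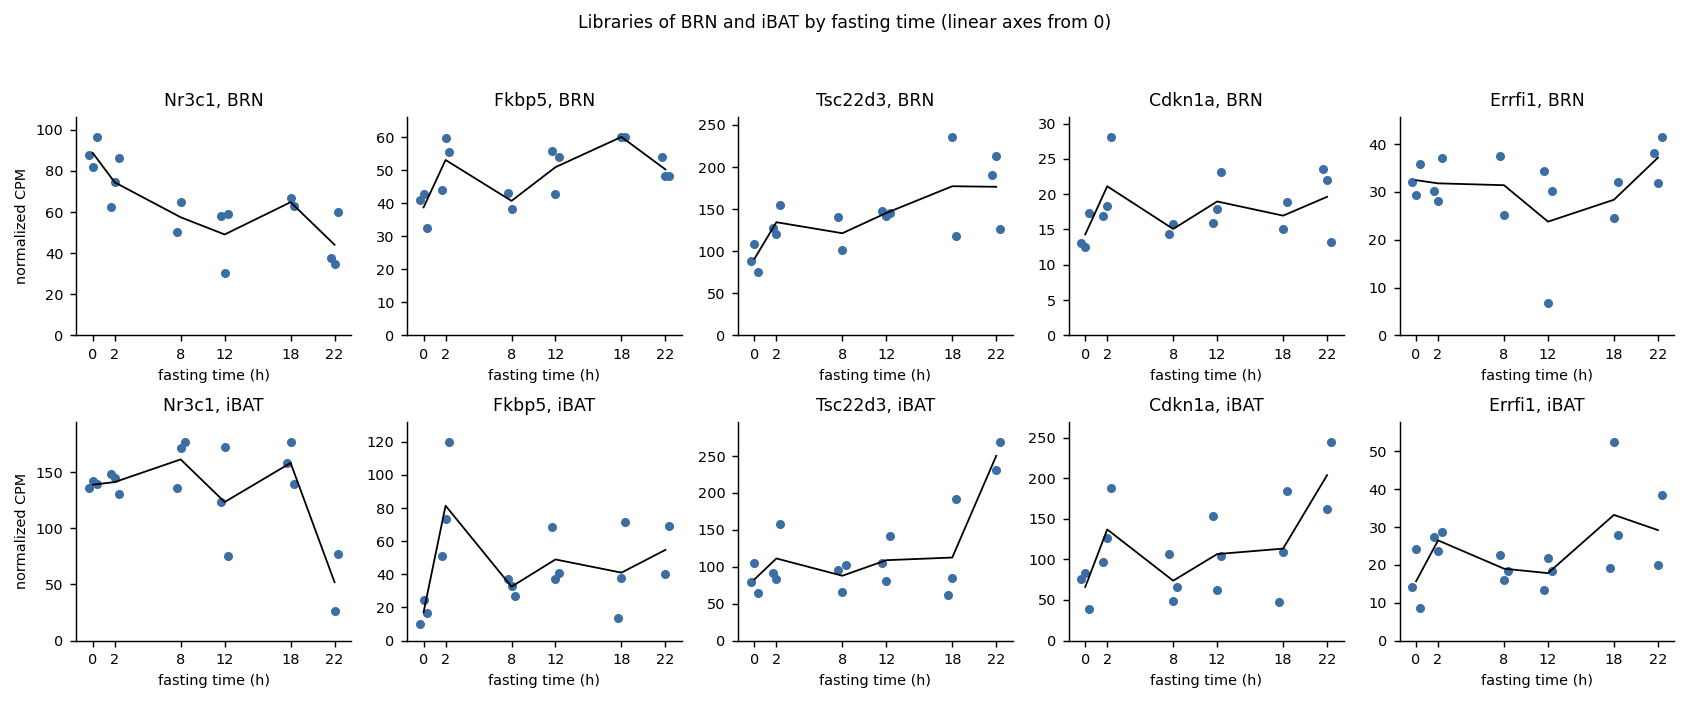
Normalized CPM of Nr3c1, Fkbp5, Tsc22d3, Cdkn1a and Errfi1 in BRN (top) and iBAT (bottom) by hours of fasting, with a point for each mouse and a line through the means. The Nr3c1 points at 22 h lie below all 0 h points in both organs and the Tsc22d3 points above them, with 2 libraries in iBAT at 22 h.

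Other measures moved with these BRN and iBAT results. Both retained 22 h iBAT libraries ran on lanes that held no other retained time of that organ, and the 22 h and 0 h BRN libraries shared no lane, so lane and time cannot be told apart there. In both organs the log2 fold changes of all genes at 22 h fell with exon length (rho -0.52 in iBAT and -0.48 in BRN), and Nr3c1 has 7684 bases of exon and Tsc22d3 has 4341. In iBAT the summed endothelium markers went from 389 to 802 CPM early to 132.7 to 392 late, with 3 of 3 called lower, and adipocyte and brown adipocyte markers each had 2 of 3 called higher. In BRN the oligodendrocyte markers went from 4738 to 10512 to 5552 to 19846, with 1 of 3 called higher. The part of these in the Nr3c1, Tsc22d3 and Fkbp5 values was not tested.

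Nr3c2 was not called in any organ: of its 63 tests 6 had an unadjusted p under 0.05, and edgeR and DESeq2 each called 0. Its late against early log2 differences ran from -0.53 in BRN to 0.79 in psWAT, and in CBL and BST its 18 libraries each stayed within 23.1 to 30.6 and 34.2 to 45.0 normalized CPM. Hsd11b1 was also without an edgeR call, with 9 unadjusted p under 0.05 and 1 DESeq2 call in 63 tests. In LIV, where it is most abundant, it was 576, 577 and 483 at 0 h and 579, 570 and 499 at 22 h (0.01 ± 0.12, edgeR adjusted p = 0.97). Its largest difference was in psWAT at 2 h, from 299, 175 and 48.2 to 53.8, 44.04 and 40.4 (-1.92 ± 0.59, adjusted p = 0.41), where the groups overlapped.

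Sgk1 was higher at 22 h than at 0 h in every library of all 4 nervous organs, a gap that OB showed for 7.07% of all genes, BST for 5.14%, CBL for 11.0% and BRN for 18.2%. It was not called in any of them (over all 9 organs edgeR called 0 of 63 tests, DESeq2 called 3, and 11 had an unadjusted p under 0.05). In BST it was 182.6, 187.8 and 41.5 at 0 h and 289, 403 and 430 at 22 h (1.45 ± 0.53, edgeR adjusted p = 0.60). In CBL it went from 104.8, 120.4 and 64.5 to 168.7, 203 and 222 (1.04 ± 0.29, adjusted p = 0.064), and in BRN from 88.8, 122.3 and 35.4 to 265, 247 and 159.5 (1.45 ± 0.47, adjusted p = 0.079). The third 0 h mouse was lowest in each of them. In the other 5 organs the 22 h difference of Sgk1 lay between -0.48 (iBAT) and 0.36 (LIV), and the 22 h groups overlapped the 0 h ones.

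Zbtb16 passed the test for any difference in STM and in no other organ (edgeR adjusted p = 0.024, background 6.55%). There it was 3.92, 7.92 and 2.65 at 0 h, 14.7, 27.2 and 18.1 at 2 h, 4.10, 1.47 and 3.19 at 8 h, 16.8, 6.99 and 17.9 at 18 h, and 12.6, 32.5 and 28.9 at 22 h. All 2 h and 22 h libraries were above all 0 h and 8 h libraries. A gap upward from 0 h was shown by 6.62% of all STM genes at 2 h and 9.96% at 22 h. The log2 fold changes were 2.02 ± 0.56 at 2 h and 2.33 ± 0.57 at 22 h (adjusted p = 0.75 and 0.067), and the call was lost without 0 h replicate 1, 8 h replicate 3 or 18 h replicate 1 or 3 (adjusted p up to 0.0668). BST showed a like course, from 10.6, 15.7 and 8.50 at 0 h to 24.1, 29.9 and 36.8 at 2 h and back to 17.1, 9.39 and 8.49 at 8 h (2 h: 1.39 ± 0.31, adjusted p = 0.45). In BRN the late against early difference was -1.13 ± 0.37 (adjusted p = 0.067).

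Klf9 passed the test for any difference in LIV (edgeR adjusted p = 0.027, background 16%). It was 12.2, 12.9 and 7.88 at 0 h, 27.8, 36.4 and 23.6 at 2 h, and 8.01, 12.9 and 19.5 at 8 h, and 1 library of the later times (18 h replicate 3, 24.5) reached the 2 h range. The 2 h difference was 1.41 ± 0.36 (adjusted p = 0.15, background 0.143%), and the call was lost without 2 h replicate 1 or 2 (adjusted p up to 0.119). In CBL, where Klf9 is most abundant, it stayed between 144.7 and 221.

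Cdkn1a rose at 22 h in CBL, from 24.1, 25.7 and 23.47 to 34.99, 48.3 and 63.9 (1.01 ± 0.25, edgeR adjusted p = 0.041), and in iBAT, from 75.2, 83.6 and 39.1 to 163 and 245 (1.63 ± 0.52, adjusted p = 0.022), without overlap. At 22 h 3.96% of all genes were called and 11.0% lay above all 0 h libraries in CBL, and 41% and 26.9% in iBAT. The CBL call was lost without any 0 h library, 2 h replicate 2, 8 h replicate 3, 12 h replicate 3 or 22 h replicate 2 or 3 (adjusted p up to 0.15), and the iBAT call without 0 h replicate 3 or either 22 h library (up to 0.12). In LIV, where its level is lowest, most libraries were between 0.914 and 6.41, and 4 were above: 17.0 at 2 h, 18.8 at 18 h and 12.4 and 15.9 at 22 h. These 4 came from mice 6, 15, 17 and 18.

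Errfi1 rose at 18 h in STM, from 29.3, 39.4 and 27.7 to 63.9, 38.4 and 63.8 (0.78 ± 0.24, edgeR adjusted p = 0.037), with 1 library of the 18 h group inside the 0 h range. The call was lost without 0 h replicate 1 or 3, 2 h replicate 3 or 18 h replicate 1 or 3 (adjusted p up to 0.14). In LIV 17 of 18 libraries held 1106 to 1472 normalized CPM, and the third 0 h mouse held 415. The largest late against early difference was in psWAT (1.08 ± 0.40, adjusted p = 0.68), where the background was 0%.

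Whether the late against early difference varied between organs was tested directly, over genes kept in all 9 organs with the mouse as a block. It was called for 6896 of 11679 genes (59%) and for 5 of the 10 members: Zbtb16 (edgeR adjusted p = 0.000464), Fkbp5 (0.0134), Sgk1 (0.0135), Tsc22d3 (0.0282) and Nr3c1 (0.0320). For Zbtb16 the differences ran from -1.22 in pgWAT and -1.13 in BRN to 0.90 in STM and 0.54 in CBL. For Sgk1 they ran from -0.31 in STM to 0.81 in BST. Klf9 (0.54), Cdkn1a (0.23), Hsd11b1 (0.19), Nr3c2 (0.093) and Errfi1 (0.074) did not pass.

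Since each mouse gave 9 organs, the deviation of a mouse from the mean of its time could be followed through its body. Here the same replicate number of a time was taken as the same mouse in every organ. The test of such shared deviations, with 12 degrees of freedom, called 57 of 11679 genes (0.488%), and 4 of the 10 members were among them: Fkbp5, second of all genes (edgeR adjusted p = 1.66e-08), Sgk1, ninth (2.15e-05), Zbtb16 (0.000683) and Tsc22d3 (0.00296). With the mice of replicate 1 left out, Fkbp5 alone of the members was called (0.00606), without replicate 2 Zbtb16 was lost (0.0809), and without replicate 3 Tsc22d3 was lost. Neither receptor passed (adjusted p = 0.90 for Nr3c1 and 0.96 for Nr3c2), nor did Hsd11b1 (0.99), and Cdkn1a (0.092), Errfi1 (0.10) and Klf9 (0.47) did not pass. Other genes of the pathway that passed were the chaperones Stip1 (1.84e-05), Hspa8 (0.0116) and Hsp90ab1 (0.0423), 3 of 9 tested, and Cebpd (0.00355) and Ddit4 (0.00699), 2 of 16 other response genes.

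In mouse 13, fasted for 18 h, Sgk1 was below the mean of its time in 8 of 8 organs (by 0.54 on the log2 scale on average) and Fkbp5 in 7 of 8 (also by 0.54). In mouse 15, of the same group, Fkbp5 was above in 8 of 9 organs (0.50). In mouse 10, fasted for 12 h, Fkbp5 (0.35) and Zbtb16 (0.70) were above in 9 of 9, and in mouse 18, fasted for 22 h, Zbtb16 was above in 9 of 9 (0.68) and Fkbp5 in 8 of 9 (0.27). In mouse 3, fed until the end, Klf9 was below in 9 of 9 organs (-0.58), Sgk1 in 8 of 9 (-0.58), Zbtb16 in 8 of 9 (-0.80) and Fkbp5 in 8 of 9 (-0.23), and this mouse also held the low LIV value of Errfi1. The order in which the mice of a time were killed was not used here.

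**Figure D5:**
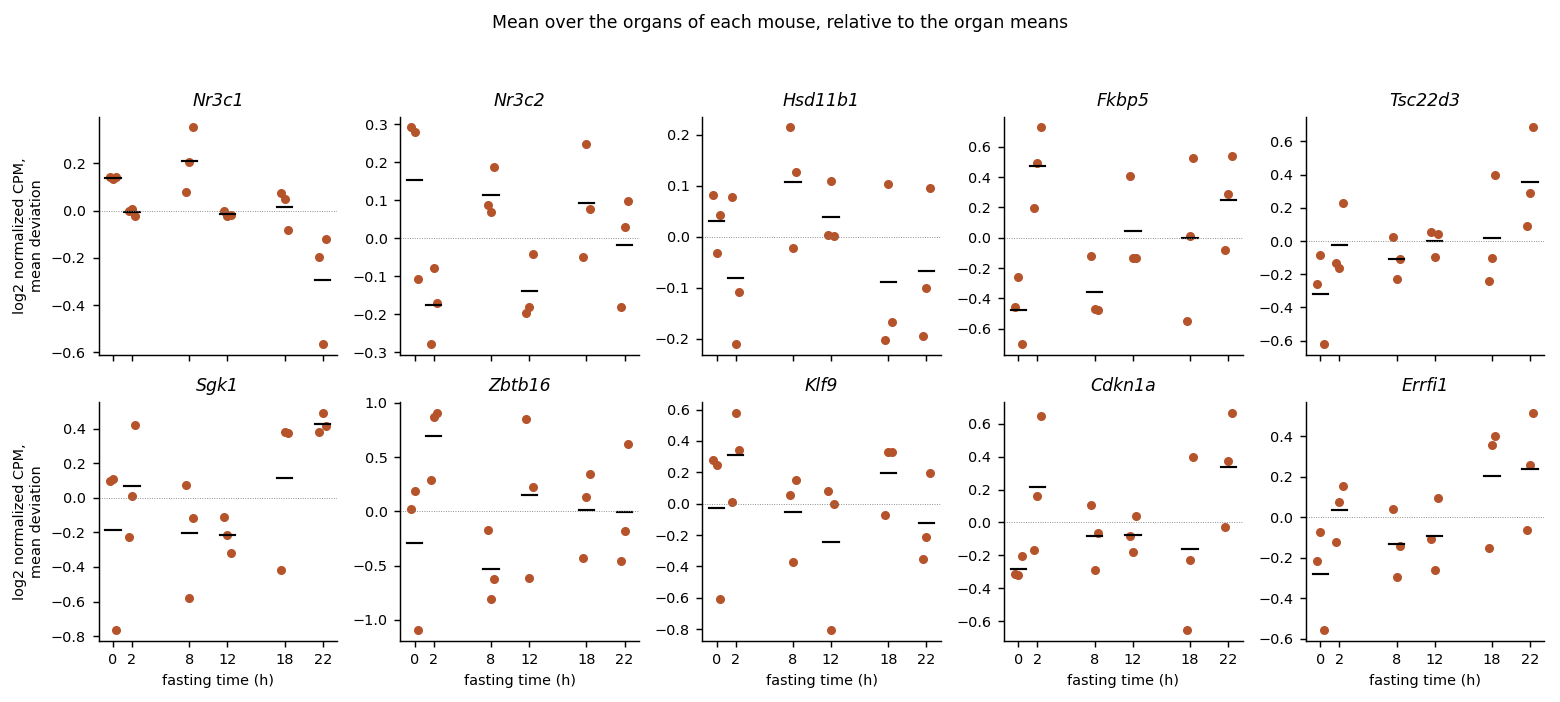
Mean over organs of the organ-centred log2 normalized CPM of each gene in each of the 18 mice, by hours of fasting, with a point for each mouse and a bar for the mean of the time. The 3 Fkbp5 points spread widely at 18 h, while the Nr3c1 points lie close together at 0 h and all lie lower at 22 h.

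With 1 value per mouse, the mean over its organs, late fasting was compared with early by limma, which called 32% of 11679 genes. Tsc22d3 (0.36 ± 0.12 on the log2 scale, adjusted p = 0.0366) and Errfi1 (0.34 ± 0.12, adjusted p = 0.0359) rose and Nr3c1 fell by 0.21 (SE 0.07, adjusted p = 0.0298), so that 3 of 10 members were called, near the background. Without 1 mouse these calls were lost in 7 of 18 fits for Tsc22d3, 8 of 18 for Errfi1 and 4 of 18 for Nr3c1, and all 3 were lost without STM. An exact two-sided permutation test over the 924 splits of 6 mice against 6 gave p = 0.0714 for Tsc22d3, 0.0455 for Errfi1 and 0.0368 for Nr3c1, unadjusted for the 10 members. Sgk1 did not pass (0.33 ± 0.17, limma adjusted p = 0.15). At 22 h against 0 h (27.6% called), a comparison on these means that was added after seeing the data, Nr3c1 was -0.43 ± 0.10 (limma adjusted p = 0.0050), Tsc22d3 0.68 ± 0.17 (0.011), Fkbp5 0.72 ± 0.23 (0.031) and Errfi1 0.52 ± 0.17 (0.030). The Nr3c1 values of the mice were 0.14, 0.13 and 0.14 at 0 h and -0.20, -0.57 and -0.12 at 22 h, with no overlap, and without the 3 fat depots this call was lost (-0.23, adjusted p = 0.077). The Fkbp5 call was lost without iBAT and without mouse 1, 3, 4, 5, 6, 17 or 18 (adjusted p up to 0.68), and that of Errfi1 without the fat depots, iBAT or pgWAT alone, and without mouse 1, 3, 17 or 18 (up to 0.143).

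Fkbp5 was 0.94 ± 0.23 higher at 2 h by the same measure, with mouse values of -0.46, -0.26 and -0.70 at 0 h and 0.19, 0.49 and 0.73 at 2 h. It did not pass after adjustment (limma adjusted p = 0.23), in a comparison that called 0.0856% of genes. At 8 h the 3 mice were at -0.12, -0.47 and -0.48, back within the 0 h range or just above it.

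Genes upstream and downstream of the receptor were counted by lists over the organs in which they were kept. Of 23 other glucocorticoid response genes 17 to 21 were kept in each organ, and 30 gene and organ pairs were called higher and 2 lower in late against early fasting, where 4.59% of all pairs were called higher and 4.77% lower. In STM 13 of 20 were higher and 0 lower, where 22.7% of all genes were called in either direction, with a median log2 difference of 0.79 against 0.01 over all genes, among them Cebpd, an adipogenic and acute-phase factor (1.29 ± 0.24, edgeR adjusted p = 0.0021), Pdk4, which blocks glucose oxidation (1.21 ± 0.25, 0.0038), Mt1, a metallothionein (0.93 ± 0.23, 0.0091), and Nfkbia, the inhibitor of NF-κB (0.74 ± 0.14, 0.0024). In iBAT 8 of 17 were higher and 2 lower (median 0.66 against -0.08, background 36%), in OB 5 of 18 were higher (background 4.87%) and in BRN 3 of 17 (background 7.43%), Mt1 and Nfkbia being higher in all of these. When 1 library was left out, Nfkbia was lost in 11 of 18 fits in OB and 9 of 16 in BRN, and Mt1 in 5 of 16 in BRN, where both were also lost without the 4 libraries that stood apart. In the fit of iBAT lanes 5 and 8 only, which has no 22 h library, Mt1 was 0.19, and neither Mt1 nor Nfkbia was called. With late against 0 h only, Mt1 was lost in STM and Nfkbia in OB and BRN. The STM markers given above moved in the same comparison, and in OB and BRN the log2 differences of all genes fell with exon length (rho -0.39 and -0.36). They fell with exon length in iBAT too (rho -0.53), where the endothelium, adipocyte and brown adipocyte markers moved as given above. The part of these in the list counts was not tested. In LIV edgeR called 0 of 21 and DESeq2 2, and 6 had an unadjusted p under 0.05, where 15% of all genes were called.

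Of 9 chaperones that hold the receptor, 4 were called lower in LIV, where 15% of all genes were called in either direction, and 4 in STM (22.7%). Fkbp4, the co-chaperone that Fkbp5 competes with, was -0.45 ± 0.11 in LIV (edgeR adjusted p = 0.0075) and -0.51 ± 0.17 in STM (0.039), and Stip1 was -0.47 in LIV (0.048) and -0.57 in STM (0.010). Leaving out 1 library ended the call of Stip1 in LIV in 13 of 18 fits, of Hsp90aa1 in LIV in 11 of 18 and of Fkbp4 in STM in 9 of 17, and scaling by library totals or a replicate block ended all 3. Hsp90aa1 was lower in LIV (-0.87), STM (-0.78) and iBAT (-1.15) and higher in BRN (0.56), and Bag1 was higher in iBAT (0.96) and BRN (0.73). In BRN both calls were lost without the 4 libraries that stood apart, and in 7 of 16 fits without 1 library for Hsp90aa1 and 4 of 16 for Bag1. Of the receptor's coregulators 7 of 9 were lower in iBAT (median -1.03, against -0.08 over all genes, of which 36% were called), among them Ncoa3 (-1.45 ± 0.25, adjusted p = 0.0012), Ncoa1 (-1.16), Ep300 (-1.13) and Crebbp (-1.03), and edgeR called none in another organ. Over all 9 organs 26 of 81 pairs had an unadjusted p under 0.05 and DESeq2 called 12. The iBAT calls of these 4 genes were lost in the lane covariate fit, which has no 22 h library. In the same comparison of iBAT the log2 differences of all genes fell with exon length (rho -0.53) and the endothelium and adipocyte markers moved as given above, and the part of these was not tested.

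Of 6 genes of hormone supply and transport kept in LIV, 2 were called lower and 0 higher (background 15%), and both inactivate the hormone. Akr1d1 went from a range of 130 to 170 normalized CPM early to 80.8 to 127 late (-0.62 ± 0.11, edgeR adjusted p = 0.0011), and Srd5a1 was -0.52 ± 0.11 (0.0032). Hsd11b2, which inactivates the hormone, was -1.52 ± 0.48 in STM (0.030, background 22.7%), a call lost in 7 of 17 fits without 1 library. Its level there was low, at 1.79 to 2.90 normalized CPM early and 0.257 to 1.45 late. The STM markers moved as given above, and their part in the Hsd11b2 values was not tested. Abcb1a, an exporter of steroids at the blood-brain barrier, was higher in CBL (0.82 ± 0.14, 0.0072, background 2.48%) and lower in OB (-0.49, 0.019) and iBAT (-0.84, 0.015). The OB call was lost in 3 of 18 fits without 1 library and the iBAT call without 22 h replicate 3. In OB the summed endothelium markers went from 25.5 to 36.1 CPM early to 17.1 to 24.7 late, with 2 of 3 called lower, and in iBAT they moved as given above, and their part in the Abcb1a values was not tested. Of the genes of the hypothalamus and pituitary that drive hormone release, 0 of 23 pairs were called by edgeR and 1 by DESeq2, and 4 had an unadjusted p under 0.05.

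The genes whose organ-centred log2 values followed each member most closely over the retained libraries, which share mice, lanes and tissue makeup, were for Fkbp5 Zbtb16 (r = 0.62), Tob2 (0.56) and Foxo1 (0.56), and for Zbtb16 Klf9 (0.72), Fkbp5 (0.62) and Timp3 (0.61). Those for Tsc22d3 were Plekhf1 (0.65), Sult1a1 (0.64) and Nfkbia (0.61), for Sgk1 Nfkbia (0.52), Ddit4 (0.49) and Dclre1b (0.47), and for Cdkn1a Ddit4 (0.57), Tsc22d3 (0.50) and Mt2 (0.48). Klf9 was followed by Gm8181 (0.78) and Nedd4 (0.78), and Errfi1 by Nr1d2 (0.64), Fmo2 (0.56) and Per1 (0.55). For the receptors and the enzyme they were genes outside the lists: Sptbn1 (0.82), Spag9 (0.79) and Zeb2 (0.79) for Nr3c1, Sort1 (0.73), Plcb1 (0.72) and Neo1 (0.70) for Nr3c2, and Scp2 (0.79), Acat1 (0.78) and Sephs2 (0.77) for Hsd11b1.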

How the data were processed

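The authors prepared strand-specific poly(A) libraries (TruSeq), sequenced both ends on an Illumina HiSeq, aligned the reads to GRCm38.p5 with TopHat2 2.1.1, kept uniquely mapped reads and counted them per gene with HTSeq 0.9.1 on Gencode annotation. The strand setting of the counting is not given in the sources used here. The deposited values are raw read counts per gene in 1 table, in which 15167 of 53686 rows held no count and 0 columns belonged to other samples. No 2 libraries were identical.

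Groups and replicates were taken from the sample titles, which give organ, time and replicate number. Libraries of a time with the same replicate number were taken as the same mouse in every organ, and all results by mouse rest on this. The study left out 5 libraries, and 157 were analysed. Within each organ, genes were kept that reached the CPM of 10 counts at the median library in 3 libraries (14023 to 16784 genes), and were tested by edgeR 4.0.16 (R 4.3.3, TMM scaling, quasi-likelihood, robust dispersions, Benjamini-Hochberg adjustment) with all 6 times in 1 fit. A call is an adjusted p under 0.05. Levels between organs, differences between organs and shared deviations of mice came from 1 edgeR fit over all organs with mouse as a block. Values per mouse were averaged over organs as log2 CPM with a prior count of 1 and tested by limma 3.58.1. Normalized CPM was computed from the counts with TMM factors, and exon lengths and positions came from Gencode models on GRCm38. Counting floors (3 counts) corresponded to 0.108 to 0.985 CPM over the libraries and cover counting error only. The mice are separate animals, and organs of 1 mouse are not independent.

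The fits were tested on simulated data: 197 of 200 genes changed 2-fold were recovered in a late against early test with LIV library sizes (17 false calls over 14023 genes), and 0 calls were made where nothing had changed. The changed genes were drawn from those above the median level, and all genes were given the same dispersion. This recovery therefore does not tell how often a change in a lower or more variable gene is missed. Alternatives were other scaling, no filter or one at 30 counts, DESeq2 1.42.0, a replicate block, lane or library series as covariate, all 162 libraries, and leaving out each library in turn. Figures were drawn with matplotlib 3.10.9. The members, gene lists and marker lists were chosen with earlier results of these data known. Genes outside the members were named by rule: up to 4 called genes per list with the smallest adjusted p in late against early fasting, and the 3 genes most correlated with each member, of which 1 is not reported here. Genes of the lists that passed the test of shared mouse deviations, and Klf13 and Serinc3, were named after their values were seen. The Phases that the study derived from expression were not used.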

Additional observations from a re-analysis of the deposited data

Results flagged for a closer look

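For 5 members the late against early difference was not the same in all organs, by edgeR's test of that difference itself. The adjusted p was 0.000464 for Zbtb16, 0.0134 for Fkbp5, 0.0135 for Sgk1, 0.0282 for Tsc22d3 and 0.0320 for Nr3c1. Zbtb16 ranged from -1.22 (pgWAT) to 0.90 (STM), Fkbp5 from -0.49 (pgWAT) to 0.40 (LIV), Sgk1 from -0.31 (STM) to 0.81 (BST), Tsc22d3 from 0.09 (pgWAT) to 0.81 (iBAT) and Nr3c1 from -0.62 (iBAT) to 0.08 (CBL). Such a difference was found for 59% of all genes tested. The lanes followed fasting time in OB, STM, LIV and pgWAT but not in CBL and BST, which each ran on 1 lane. The part of lane in these 5 was not tested.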

How the results depend on the processing

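The 4 late against early calls became 2 with scaling by library totals, 7 with DESeq2, 11 without a filter on low counts, 10 with late against 0 h only, 0 with lane or library series as a covariate and 0 when a log2 difference over 1 was also asked for. Leaving out 1 library gave 2 to 7 calls: 7 without BRN 22 h replicate 3, and 2 without iBAT 2 h replicate 1 or 2, 18 h replicate 3 or 22 h replicate 2. The 10 calls of any difference became 21 with DESeq2 and 25 without the filter, and the 16 calls against 0 h became 35, 43 and, over a log2 difference of 1, 6, with 7 to 12 and 12 to 22 when 1 library was left out. The 5 differences between organs became 8 with limma voom and 2 to 4 without replicate 1, 2 or 3, and the 4 shared deviations 7 with limma voom and 1 to 3 without a replicate number. On mouse means the 3 calls became 1 without BRN or iBAT, 0 without STM and 0 to 4 without 1 mouse; without mouse 5, 15 or 17 none was called.

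The cause of these changes was not tested. The lane or library series fits of OB, BRN, STM, LIV and both white fats kept all retained libraries. That of iBAT kept lanes 5 and 8 only, without a lane term. In OB, STM and LIV only the 8 h group ran on both lanes. Those fits can hardly part lane from time, so the calls lost there decide nothing on either. The late against early difference of Nr3c1 in iBAT turned from -0.62 to 0.0645 with lanes 5 and 8 only. Of 71 single results, 26 kept their call when each library was left out and 15 under every other setting; 1 changed sign. Replicate numbers did not pair samples (mean correlation of same-numbered libraries -0.07 to 0.18 by organ), and with a replicate block there were 5 late against early calls, 9 of any difference, 16 against 0 h and 3 on mouse means. Low counts limit Zbtb16 in BRN, STM, iBAT and psWAT, Hsd11b1 in STM, Nr3c2 in psWAT, Cdkn1a in LIV and Klf9 in BRN. The lowest count of a library there was 6 to 12.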
